A study of Sus scrofa with 12 samples.

Results

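ZP3 and ZAR1 are a pair of genes that oocytes express and most other cells of the ovary do not. All array features whose platform gene symbol is ZP3 or ZAR1 were taken, which gave 1 feature for ZP3 (feature 12294) and 1 for ZAR1 (feature 21967), 2 of the 45220 features on the array and 2 of 11913 genes with a symbol. Each gene therefore rests on a single probe, and no second probe of the same gene could be set beside it. None of the 9 comparisons between groups passed the test for either gene.

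ZP3 encodes a glycoprotein of the zona pellucida, the extracellular coat that the oocyte builds around itself and that sperm must bind and cross. The pig zona is made of ZP2, ZP3 and ZP4, which polymerise into filaments, and in mice an oocyte without ZP3 has no zona. ZAR1, zygote arrest 1, is a maternal-effect gene: in mice, embryos of females without it stop at the first cleavage although the oocytes themselves can be fertilised. Its protein binds RNA, and in mouse oocytes it works with its relative ZAR1L and with the RNA-binding protein YBX2 in the store of maternal mRNA that the oocyte draws on during maturation, when transcription is silent. Maturation acts on such transcripts through storage, polyadenylation and decay.

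The oocytes came from crossbred pigs (Sus scrofa), prepubertal gilts, and were of the classes SM and LG, names whose meaning the labels leave out. All were matured in vitro for 44 h in TCM199 containing LH, FSH, EGF and porcine follicular fluid at 10%, and were then denuded of their cumulus cells with hyaluronidase and a glass pipette. Medium without a further compound gave the groups SM control and LG control, and medium with added GDNF (glial cell line-derived neurotrophic factor, a ligand of the RET receptor kinase) gave SM GDNF and LG GDNF. Each group had 3 arrays of pooled oocytes, 12 in all, hybridised in 2 colours with a shared reference RNA, itself a pool of oocytes of every group. The design text gives 9 biological replicates per condition, 3 to an array, whereas the sample labels give 2 per pool, and the p-values measure the spread between these arrays.

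The values are the authors' log ratios, taken here as log2, and a difference is the first group named minus the second. The sample carried Cy5 on slide 1 and Cy3 on slides 2 and 3, and the sources used here do not state whether the ratios were turned to run sample over reference on every slide. The sign of a value is therefore that of the deposited ratio and gives no direction of expression. Beside it stand the opposite reading, in which slides 2 and 3 are turned, and the 8 arrays of slides 2 and 3 alone, which share 1 orientation. Over all features the slide means as deposited had r = 0.641 (slides 1 and 2), 0.606 (1 and 3) and 0.634 (2 and 3). With slides 2 and 3 turned the former 2 were -0.641 and -0.606. Which reading holds was not tested. As the reference is itself made of oocytes, the ratios hold no absolute level, and they can show neither how abundant the 2 transcripts were nor whether fewer oocytes or less RNA per oocyte entered a pool. Every slide held 1 array of each group, and array medians lay between -0.0106 and 0.0215. LG control 2 and LG GDNF 3, both on slide 3, were taken as the 2 arrays that stood apart. The correlations of those 2 arrays with other arrays across all features had a median of 0.286, against 0.493 among the other 10 arrays. LG control 2 had 489 features with a ratio above 4. The lowest correlations were not theirs: LG control 1 had -0.0664 with SM control 2 and -0.0637 with LG GDNF 2. LG control 1 was kept in every value given without the 2 arrays.

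The ZP3 ratios overlapped between all 4 groups. In SM control the ratios of pools 1, 2 and 3 were -0.532, 0.573 and -0.440. In SM GDNF they were 0.320, 0.309 and 1.147. The 3 SM control pools thus lay on both sides of 0, while the SM GDNF pools all lay above it, and the groups overlapped because SM control 2 was above 2 of the SM GDNF pools. In LG control the ratios of pools 1, 2 and 3 were -0.606, 0.724 and 1.043. In LG GDNF they were -0.402, 0.447 and 0.909. The LG groups covered nearly the same range, each with its pool 1 array, on slide 1, below 0 and the other pools above it.

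ZAR1 varied more than ZP3 within 3 of the 4 groups. In SM control the ratios of pools 1, 2 and 3 were 0.094, 1.493 and -0.123. In SM GDNF they were 0.509, 0.947 and 0.952, the narrowest of the 4 groups. LG control held both the lowest and the highest ZAR1 value of the 12 arrays: its pools 1, 2 and 3 had ratios of -1.047, 2.428 and 0.335. In LG GDNF they were 0.174, 1.328 and 1.466. The LG GDNF range therefore lay inside that of LG control.

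**Figure D1:**
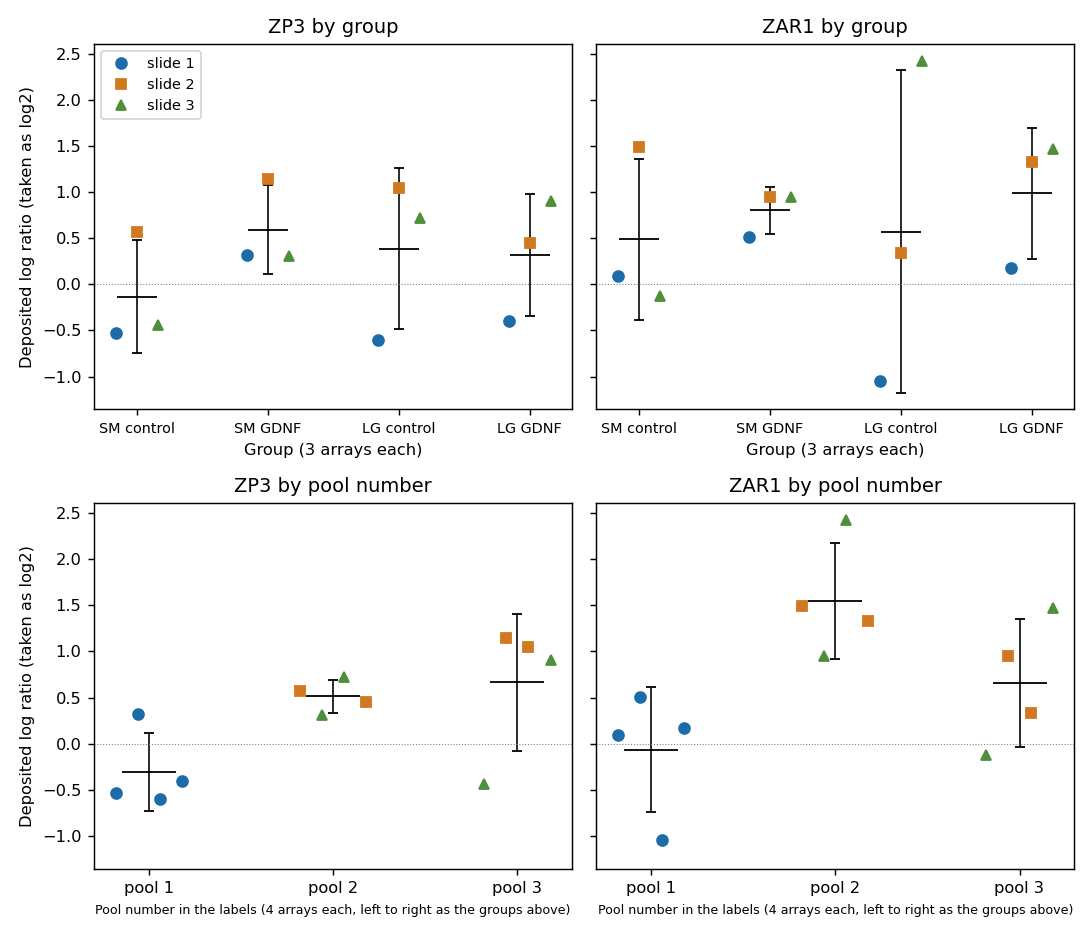
Deposited log ratio (vertical axis, taken as log2) of ZP3 and ZAR1 on each of the 12 arrays, by group in the upper panels and by pool number in the lower ones, with a colour and marker for each slide and bars for the mean and SD (n = 3 by group, n = 4 by pool). The pool 1 arrays of LG control and LG GDNF are the lowest of their groups for both genes, and the ZAR1 values of LG control run from -1.047 to 2.428.

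Over the 12 arrays the ZP3 ratio had a mean of 0.291 and an SD of 0.637, and 6.91% of all genes had a larger SD. The mean of ZAR1 was 0.713 and its SD 0.917, and 2.24% of genes had a larger SD, where the median gene had 0.252. With slides 2 and 3 turned, 25.0% of genes had a larger SD than ZP3 (0.482) and 4.19% a larger one than ZAR1 (0.877), so the place of ZP3 depended on the reading. Of the sum of squares of ZP3, 55.9% lay between slides and 18.8% between groups. For ZAR1 these shares were 40.0% and 5.02%. Summed over all genes they were 24.1% and 25.6%, so as deposited the share of the slide was larger for both oocyte genes and the share of the group smaller. With slides 2 and 3 turned, slides and groups took nearly equal shares of ZP3, 22.7% and 21.6%. The turned shares were 34.4% and 16.7% for ZAR1 and 48.8% and 15.4% over all genes, so neither order against all genes held in that reading. As deposited, the slide means of ZP3 were -0.305 ± 0.425 on slide 1, 0.803 ± 0.344 on slide 2 and 0.375 ± 0.599 on slide 3 (SD, n = 4 each). Those of ZAR1 were -0.067 ± 0.677, 1.027 ± 0.514 and 1.18 ± 1.063 (SD, n = 4 each). Slide 1 alone had the sample in Cy5 and also held every pool 1 array, so slide, dye and pool cannot be told apart there.

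The order of the group means was not resolved for either gene. For ZP3 the deposited means ran from SM GDNF at 0.592 ± 0.481 through LG control at 0.387 ± 0.875 and LG GDNF at 0.318 ± 0.665 to SM control at -0.133 ± 0.613 (SD, n = 3 each). For ZAR1 they ran from LG GDNF at 0.989 ± 0.709 through SM GDNF at 0.803 ± 0.254 and LG control at 0.572 ± 1.749 to SM control at 0.488 ± 0.877 (SD, n = 3 each). No neighbours in either order differed beyond their spread. In the opposite reading the ZP3 order was SM control (-0.222 ± 0.573), SM GDNF (-0.379 ± 0.736), LG GDNF (-0.586 ± 0.281) and LG control (-0.791 ± 0.226). ZAR1 had the same order there, with -0.426 ± 0.925, -0.463 ± 0.842, -0.873 ± 0.91 and -1.27 ± 1.064 (SD, n = 3 each). The order thus depended on the reading for both genes. A single test over all 4 groups (limma moderated F, slide in the model) gave ZP3 F = 1.98 with an adjusted p of 0.985 and ZAR1 F = 0.273 with an adjusted p of 0.992.

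The first comparison asked how SM oocytes differed after GDNF, and it holds the largest ZP3 difference between any pair of groups as deposited. ZP3 was 0.851, 0.574 and 0.749 higher in the deposited ratio of SM GDNF than in that of SM control on slides 1, 2 and 3, the same side on 3 of 3 slides. The fitted difference was 0.72 (SE 0.307, 95% interval 0.0335 to 1.42), with an unadjusted p of 0.0417 and an adjusted p of 1.00 (limma, Benjamini-Hochberg over 11913 genes). Without SM control 3 it was 0.46 (unadjusted p = 0.195) and without SM GDNF 2 it was 0.97 (unadjusted p = 0.0194), with adjusted p-values of 1.00 and 0.998. It did not pass the test over all genes, and 0.596% of genes had a larger difference. Genes at such an unadjusted p, under 0.05, made up 2.34% of all genes here (279), below the 5% that the threshold itself gives, and 0% passed the adjusted test. In the opposite reading the ZP3 difference was -0.16 (SE 0.340), and on slides 2 and 3 alone it was 0.66 (SE 0.372), with an interval from -0.25 to 1.57. The groups overlapped for ZP3, while they did not for 7.15% of genes.

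ZAR1 did not share that pattern in SM. Its within-slide differences between SM GDNF and SM control were 0.416, -0.541 and 1.069 on slides 1, 2 and 3. The fit gave 0.31 (SE 0.615, 95% interval -1.07 to 1.70; limma, adjusted p = 1.00). The interval is wide enough to hold differences of more than 1 unit on either side. The turned value was -0.04, and slides 2 and 3 alone gave 0.26.

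In LG oocytes ZP3 hardly separated GDNF from control. Its within-slide differences were 0.205, -0.595 and 0.185, and the fitted difference was -0.07 (SE 0.307, 95% interval -0.76 to 0.62; limma, adjusted p = 0.981). Turned, the value was 0.21, and slides 2 and 3 alone gave -0.21. For ZAR1 the within-slide differences were 1.221, 0.994 and -0.962, so slide 3, with the 2 arrays that stood apart, ran against the others. The fit gave 0.42 (SE 0.615, 95% interval -0.97 to 1.80; limma, adjusted p = 0.905), 0.40 with slides 2 and 3 turned and 0.02 on these slides alone. Without those 2 arrays, a choice made after the values were seen, the ZAR1 difference was 1.11 (limma, unadjusted p = 0.0111, adjusted p = 0.623), and without LG control 2 alone it was 1.34 (adjusted p = 0.627). Without LG control 1 alone it was -0.14 (limma, adjusted p = 0.990). Both genes overlapped between the LG groups. In this comparison 7.57% of genes had an unadjusted p under 0.05 (902), 0% passed the adjusted test, and 10.6% did not overlap.

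Between the classes without GDNF, ZP3 had a fitted LG minus SM difference of 0.52 (SE 0.307, 95% interval -0.17 to 1.21; limma, adjusted p = 0.779). The within-slide differences were -0.075, 0.470 and 1.164. On slides 2 and 3 alone the value was 0.82 (95% interval -0.093 to 1.73). In the opposite reading it was -0.57 (SE 0.340, adjusted p = 0.999), and there every LG control array lay below every SM control array, the highest of the former being the -0.606 of pool 1. Read that way, 3.42% of genes did not overlap between these groups. As deposited the groups overlapped for both genes, and 9.38% of genes did not overlap. ZAR1 had within-slide differences of -1.14, -1.159 and 2.55, and its fitted difference was 0.08 (SE 0.615, 95% interval -1.30 to 1.47; adjusted p = 0.988). That near-zero value averaged slides 1 and 2 on one side with slide 3 on the other. It was -0.84 in the opposite reading, 0.70 on slides 2 and 3 alone and -0.96 without the 2 arrays that stood apart (limma, unadjusted p = 0.0178, adjusted p = 0.825). Without LG control 1 alone it was 0.64. At an unadjusted p under 0.05 lay 7.10% of genes (846), and 0% passed the adjusted test.

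With GDNF in the medium neither gene separated the classes. ZP3 had within-slide LG minus SM differences of -0.721, -0.700 and 0.600 and a fitted difference of -0.27 (SE 0.307, 95% interval -0.97 to 0.42; limma, adjusted p = 1.00). Here slide 3 again ran against slides 1 and 2, and without the 2 arrays that stood apart the ZP3 difference was -0.72 (unadjusted p = 0.0115). The opposite reading gave -0.21 and slides 2 and 3 alone -0.05. ZAR1 had 0.19 (SE 0.615, 95% interval -1.20 to 1.57), -0.41 with slides 2 and 3 turned and 0.45 on these slides alone. Of all genes 2.41% had an unadjusted p under 0.05 (287), 0% passed the adjusted test and 6.55% did not overlap, whereas ZP3 and ZAR1 both overlapped.

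The pairs of groups that differ in both class and GDNF gave values of the same order as their errors. SM GDNF minus LG control was 0.21 for ZP3 (95% interval -0.49 to 0.90) and 0.23 for ZAR1 (95% interval -1.16 to 1.62). Slides 2 and 3 alone put both on the other side, at -0.16 and -0.43, and the opposite reading gave 0.41 and 0.81. LG GDNF minus SM control was 0.45 for ZP3 (95% interval -0.24 to 1.14) and 0.50 for ZAR1 (95% interval -0.88 to 1.89), with -0.36 and -0.45 in the opposite reading. Both genes overlapped in both pairs. Without the 2 arrays that stood apart the ZAR1 difference between SM GDNF and LG control was 1.28 (limma, unadjusted p = 0.00419, adjusted p = 0.613). Without LG control 1 alone it was -0.33. In the former pair 7.40% of genes had an unadjusted p under 0.05, 0% passed and 12.1% did not overlap, and in the latter pair these shares were 2.73%, 0% and 6.72%.

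Whether GDNF acted differently in the classes was tested as an interaction, the GDNF difference in LG minus that in SM. It was -0.79 for ZP3 (SE 0.434, 95% interval -1.77 to 0.18; limma, adjusted p = 0.991) and 0.10 for ZAR1 (SE 0.870, 95% interval -1.86 to 2.06; adjusted p = 0.995). A difference between the classes was thus not shown for either gene, and the opposite reading gave 0.36 and 0.43. Averaged over the classes, GDNF minus control was 0.33 for ZP3 (SE 0.217) and 0.37 for ZAR1 (SE 0.435), with intervals from -0.16 to 0.82 and from -0.61 to 1.35. Averaged over GDNF, LG minus SM was 0.12 for ZP3 (95% interval -0.37 to 0.61) and 0.14 for ZAR1 (95% interval -0.84 to 1.12), and -0.39 and -0.63 in the opposite reading. At an unadjusted p under 0.05 lay 4.19% of genes for the interaction, 4.45% for the averaged GDNF difference and 3.99% for the averaged class difference, and 0% passed the adjusted test in each.

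**Figure D2:**
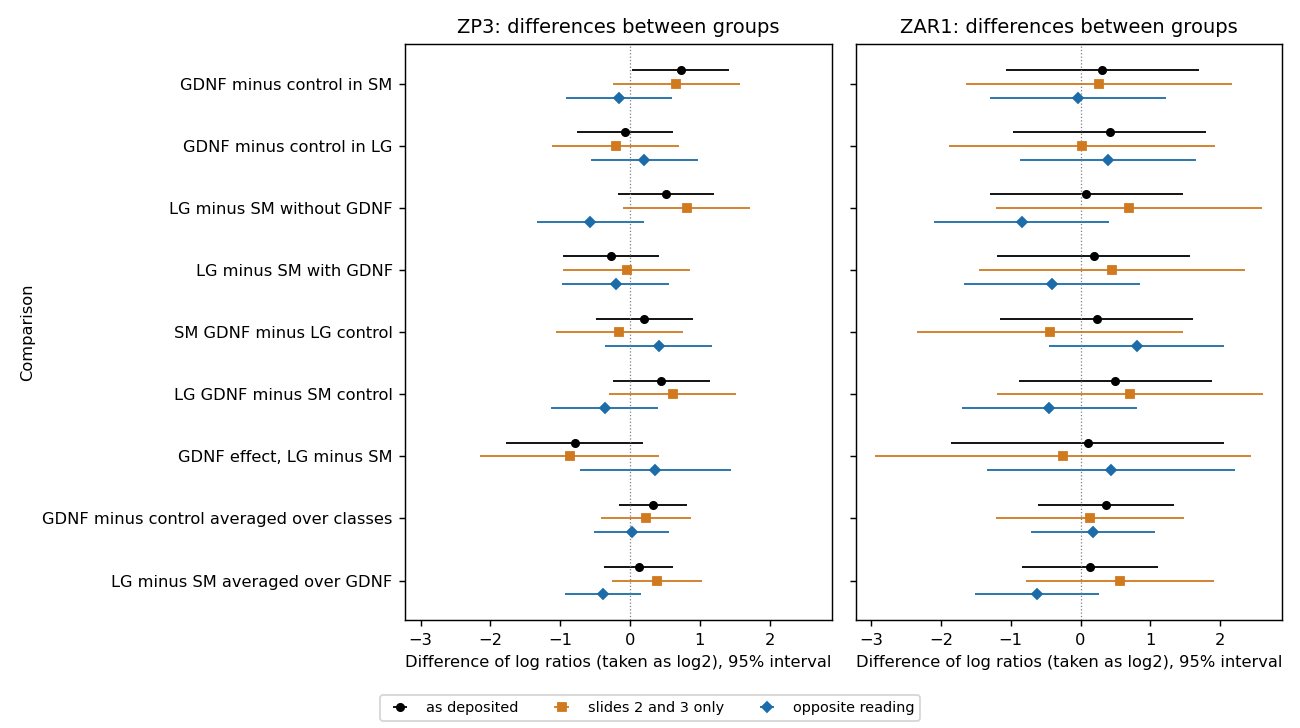
Differences between groups for ZP3 and ZAR1 (horizontal axis, log ratios taken as log2) with 95% intervals from limma, for the 9 comparisons in 3 settings: all arrays as deposited, slides 2 and 3 only, and the opposite reading. The only interval that does not cross 0 is that of ZP3 for GDNF in SM as deposited, from 0.0335 to 1.42, and its adjusted p was 1.00.

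The zona pellucida list held ZP1, ZP2, ZP3, ZP4 and ASTL, of which 4 of 5 were measured and ZP1 was not. ZP2 is the zona protein that ASTL, the cortical granule protease ovastacin, cleaves after fertilisation, and ZP4 completes the pig zona. ZP2 and ZP4 differed from ZP3 on single arrays. With each slide's mean removed, Pearson's r with ZP3 was nevertheless 0.610 for ZP2, and 3.61% of all genes had a higher one. For ZP4 it was 0.289, with 23.4% of genes higher. ZP4 was at 0.515 on LG control 2 and 0.054 on LG control 3 and lay between -0.653 and -0.341 on the other 10 arrays. ZP2 was at 1.158 and 0.721 on the same LG control arrays, at -0.909 on LG control 1 and between -0.731 and 0.109 on the remaining 9 arrays. On those LG control arrays ZP3 was also above 0, at 0.724 and 1.043, but its highest value was the 1.147 of SM GDNF 3, where ZP2 was at -0.337 and ZP4 at -0.419. Both LG control pools lie on slides with the sample in Cy3, and the LG control pool on slide 1 showed none of these high values.

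In LG minus SM without GDNF all 4 measured zona genes lay above 0 as deposited, with a median of 0.54 against 0.0047 over all genes, and 2 of 4 had an unadjusted p under 0.05, where 7.10% of all genes did. In limma these were ZP4 at 0.50 (SE 0.211, unadjusted p = 0.0415) and ASTL at 0.56 (SE 0.238, unadjusted p = 0.0418), beside ZP2 at 0.95 (SE 0.431, unadjusted p = 0.0549), with adjusted p-values of 0.695, 0.695 and 0.705. None passed over all genes. ZP2 and ZP4 had values of a similar size with the other sign in the opposite reading, where they had -1.07 (unadjusted p = 0.00413, adjusted p = 0.999) and -0.50. In GDNF minus control in LG 3 of 4 lay below 0, with a median of -0.30, ZP2 at -0.78 (SE 0.431), ZP4 at -0.52 (SE 0.211, limma, unadjusted p = 0.0345, adjusted p = 0.646) and ASTL at 0.11 (SE 0.238). These last 2 comparisons share the LG control arrays and are given side by side only. The opposite reading put ZP2 there at 0.98 (SE 0.282, adjusted p = 0.979).

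In GDNF minus control in SM 3 of 4 zona genes lay above 0 as deposited, and ZP3 was the 1 of 4 with an unadjusted p under 0.05, where 2.34% of all genes had one. Turned, ZP3 itself had -0.16. ZP2 had 0.30 (SE 0.431), ASTL 0.21 (SE 0.238) and ZP4 -0.04 (SE 0.211). The intervals of ZP2 (-0.67 to 1.27) and ASTL (-0.33 to 0.74) hold the ZP3 value, and whether ZP3 differed from them was not tested. In the interaction all 4 lay below 0, with a median of -0.64 and none with an unadjusted p under 0.05. Of all 11913 genes 5702 lay above 0 there. Turned, ZP3 had 0.36, and by the group means ZP2 and ZP4 also moved above 0 while ASTL stayed below. Averaged over GDNF all 4 lay above 0 in LG minus SM, as did 5890 of all genes. ASTL had 0.52 (SE 0.168, limma, unadjusted p = 0.0130, adjusted p = 0.937), and 3.99% of all genes had an unadjusted p under 0.05. Turned, ZP3 had -0.39 there, and the group means put ZP2, ZP4 and ASTL below 0 as well. In LG minus SM with GDNF 2 of 4 lay on each side. ASTL reached 0.68 in LG GDNF minus SM control (limma, unadjusted p = 0.0189, adjusted p = 0.999), where 2.73% of all genes had an unadjusted p under 0.05. ZP4 had -0.54 in SM GDNF minus LG control (limma, unadjusted p = 0.0294, adjusted p = 0.659), where 7.40% had one. Both lay on the other side turned. The turned ASTL means were -0.368 in LG GDNF and 0.028 in SM control, and those of ZP4 0.187 in SM GDNF and -0.365 in LG control.

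**Figure D3:**
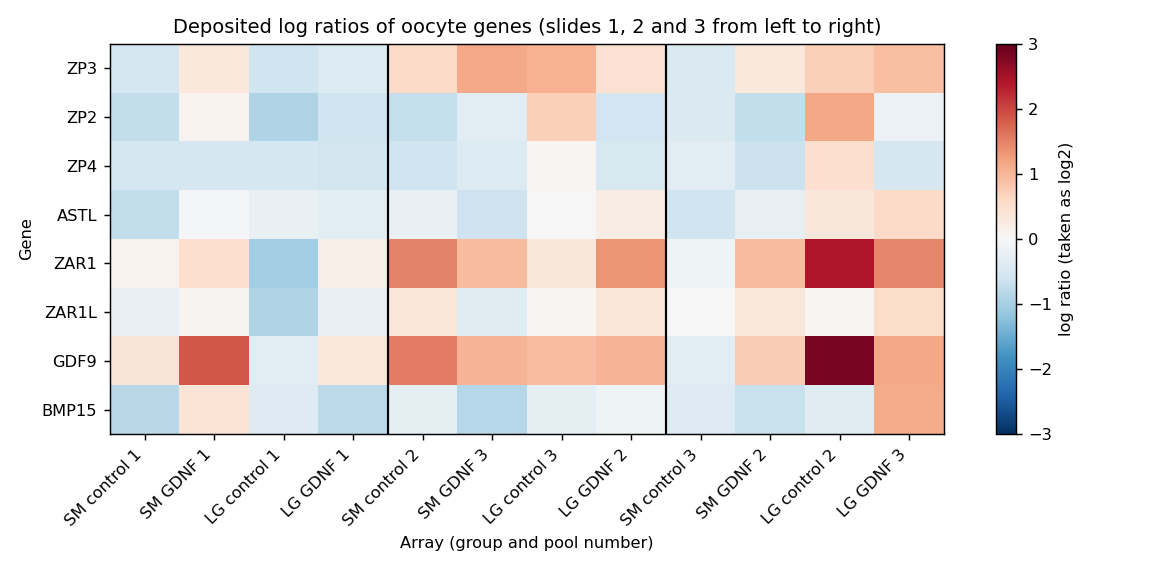
Deposited log ratios (colour, taken as log2, scale from -3 to 3) of ZP3, ZAR1 and other oocyte genes on the 12 arrays, ordered by slide and group. The LG control 2 array stands out with ZAR1 at 2.428, GDF9 at 2.837 and ZP2 at 1.158, while LG control 1 has ZAR1 at -1.047 and ZP2 at -0.909.

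The maternal-effect list, in which ZAR1 stands with the subcortical maternal complex, had 10 of 17 members measured. In GDNF minus control in LG 7 of 10 lay above 0, with a median of 0.40 against -0.020 over all genes. One of them had an unadjusted p under 0.05, BTG4, an adaptor that brings the deadenylase to maternal mRNA during maturation, at 1.24 (SE 0.355, limma, unadjusted p = 0.00654, adjusted p = 0.646). BTG4 was also the 1 member past that mark in LG minus SM without GDNF, at -1.27 (unadjusted p = 0.00573), where 4 of 10 members lay above 0 and 7.10% of all genes were past it. So it was in the interaction, at 1.17, where 8 of 10 members lay above 0 and 4.19% of all genes were past it. In the opposite reading it had -0.72 and 0.76 in the first 2 of these comparisons. Averaged over the classes, GDNF minus control had 3 of 10 members past that mark, against 4.45% of all genes: NLRP2, of the same NLRP family as NLRP5, at 0.41, BTG4 at 0.65 and SMARCA4 at -0.43. Their adjusted p was 0.882 in limma, and turned they had -0.13, -0.12 and 0.08. SM GDNF minus LG control had 2 of 10, against 7.40%: BTG4 at 1.34 and SMARCA4 at -0.83 (adjusted p = 0.659), with -0.28 and 0.07 turned. LG minus SM averaged over GDNF had 1 of 10, BTG4 at -0.68 (adjusted p = 0.937), against 3.99%. In SM 7 of 10 members lay above 0, with a median of 0.086, and SMARCA4, the ATPase BRG1 of a chromatin remodelling complex, had -0.59 (SE 0.262, unadjusted p = 0.0499) and -0.12 in the opposite reading. SMARCA4 was the 1 of 10 past that mark there, against 2.34% of all genes, with an adjusted p of 0.99994 in limma. ZAR1L, the relative of ZAR1 with 2 features on the array, had -0.03 (SE 0.252) in SM and 0.49 (SE 0.252, unadjusted p = 0.0841) in LG.

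A further list took ZAR1 with its partners and other genes of stored maternal mRNA, 9 of 14 of them measured. In GDNF minus control in LG 7 of 9 lay above 0, with a median of 0.18. Members with an unadjusted p under 0.05 were PABPC1L, the embryonic poly(A)-binding protein, at 0.79 (SE 0.185, limma, unadjusted p = 0.00195, adjusted p = 0.646), and EIF4E, the cap-binding initiation factor, at -0.99 (SE 0.334, unadjusted p = 0.0153, adjusted p = 0.646), thus on opposite sides. These shares, 1 of 10 and 2 of 9, stand against 7.57% of all genes. The same 2 genes were past that mark in LG minus SM without GDNF, at -0.52 and 0.91, where 7.10% of all genes were, and in SM GDNF minus LG control, at 0.79 and -0.92, where 7.40% were. With slides 2 and 3 turned PABPC1L had -0.51 and EIF4E 0.50 for GDNF in LG, neither with an unadjusted p under 0.05. In SM 6 of 9 lay above 0, with a median of 0.083, and none had an unadjusted p under 0.05, where 2.34% of all genes had one. No member of either list passed over all genes in any comparison.

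Among the oocyte transcription factors, which drive zona and other oocyte genes during growth, 6 of 8 were measured. Of these TAF4B, an oocyte TFIID subunit, had 0.49 for GDNF in LG (SE 0.168, limma, unadjusted p = 0.0162), -0.08 in the opposite reading, and no other member had such a p there. This 1 of 6 stands against 7.57% of all genes. TAF4B was also the 1 of 6 past that mark in the interaction, against 4.19%, and no member passed the adjusted test. The oocyte-secreted factors, with 5 of 6 measured, had no member with an unadjusted p under 0.05 in any of the 9 comparisons, where 2.34% to 7.57% of all genes had one. Their best known members, GDF9 and BMP15, signal from the oocyte to its cumulus cells. GDF9 had 0.69 (SE 0.726) for GDNF in SM and -0.32 in LG, and BMP15 had 0.13 (SE 0.459) and 0.40.

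Markers of cumulus and granulosa cells, the cells removed before RNA extraction, were measured for 21 of 25 genes. The median of the list lay between 0.029 and 0.152 on the SM control arrays, between -0.060 and 0.052 on SM GDNF, between -0.155 and 0.089 on LG control and between -0.166 and 0.109 on LG GDNF. In GDNF minus control in SM 14 of 21 markers lay below 0, with a median difference of -0.069 and none with an unadjusted p under 0.05. Of all 11913 genes 5902 lay above 0 there. ZP3 had 0.72 in that comparison as deposited and -0.16 turned. In GDNF minus control in LG 11 of 21 lay below 0, while 5542 of all genes lay above it. KITLG, the granulosa ligand of the oocyte receptor KIT, had 0.69 (SE 0.237, limma, unadjusted p = 0.0163), where 7.57% of all genes had an unadjusted p under 0.05. In LG minus SM without GDNF 16 of 21 lay below 0, with a median of -0.051, while 6050 of all genes lay above it. KITLG had -0.62 (limma, unadjusted p = 0.0274, adjusted p = 0.674), where 7.10% of all genes were past that mark. Averaged over GDNF, LG minus SM had 15 of 21 below 0, while 5890 of all genes lay above it. The hyaluronan matrix gene TNFAIP6 had -1.14 (limma, unadjusted p = 0.0386, adjusted p = 0.937) and 0.87 turned, where 3.99% of all genes were past that mark. Ratios to a reference cannot show whether a marker was near 0, and the part of remaining cumulus cells in the ZP3 and ZAR1 values was not tested.

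Values by the pool numbers of the labels are given as a description, and a difference between pools was not tested. The 4 pool 2 arrays had ZAR1 at 0.947 to 2.428, with a mean of 1.549 ± 0.629. Their highest value was that of LG control 2, which stood apart. The pool 3 arrays ran from -0.123 to 1.466, with 0.658 ± 0.696 (SD, n = 4 each), so the ranges overlapped. Both pools were spread over slides 2 and 3. The pool number took 56.6% of the sum of squares of ZAR1, against 22.4% over all genes, and 52.6% against 47.7% with slides 2 and 3 turned. For ZP3 it took 48.7% as deposited but 10.2% turned, and the pool 2 arrays lay close together, from 0.309 to 0.724, with pool 3 at 0.665 ± 0.743. The view by pool was chosen after the values were seen, and 8 of 12 arrays had their closest array of another group, by group deviations over all features, within their own pool number, and likewise 8 of 12 on their own slide. What the pools share beyond the number is not given in the labels.

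Whether ZP3 and ZAR1 varied together from array to array was tested within slides, and neither measure of it passed. With each slide's mean removed, Pearson's r was 0.56 in both readings over the 12 arrays (exact permutation within slides, two-sided, p = 0.141) and Spearman's rho 0.469 (exact permutation p = 0.184). Adjusted over these 2 tests both p-values were 0.184. Turned, rho was 0.497 (exact permutation p = 0.169). Without SM GDNF 1 and SM control 3, the arrays farthest from the median of the slide-centred ZP3 values, r was -0.033 (exact permutation p = 0.935). Leaving out the extremes of 1 of the 2 genes narrows its range and tends to lower r. Whether the relation rested on those arrays was therefore not tested. On slides 2 and 3 alone r was 0.51 (exact permutation p = 0.347).

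**Figure D4:**
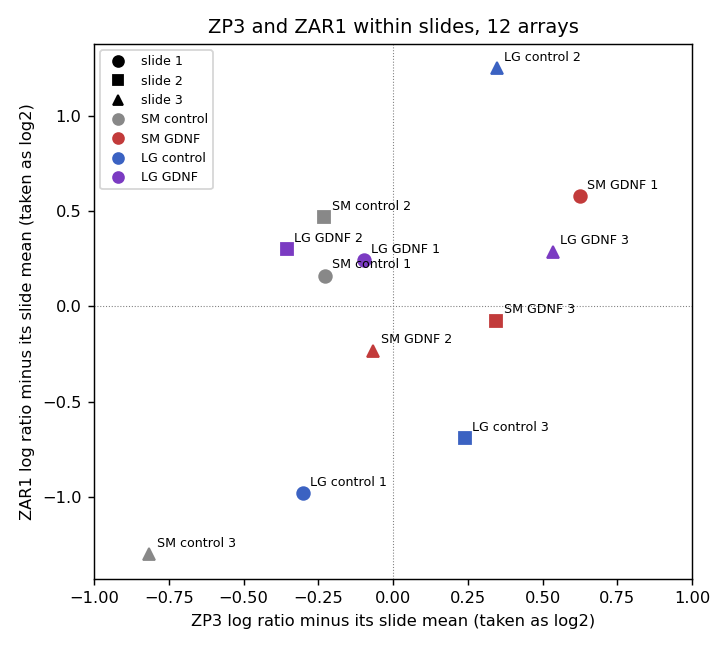
ZP3 against ZAR1 on the 12 arrays, each as the log ratio minus the mean of its slide (both axes taken as log2), with colours for the groups and markers for the slides. Pearson's r is 0.56 over all arrays and -0.033 without SM GDNF 1 and SM control 3.

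Genes most like each of the 2 in their within-slide pattern were listed by Pearson's r over the same 12 arrays, as a description. These points share arrays and pools, and with 12 arrays high values can arise by the number of genes alone: the 95th percentile over all genes was 0.574 for ZP3 and 0.730 for ZAR1. The closest to ZP3 were NCAPH, a condensin subunit (r = 0.901), the calcium release channel RYR1 (0.899), the melanosome protein TYRP1 (0.890), the replication factor WDHD1 (0.881) and the spindle protein SPAG5 (0.864). The closest to ZAR1 were the amino acid transporter SLC7A7 (0.984), the thiamine transporter SLC19A2 (0.954), the mitochondrial fusion GTPase OPA1 (0.950), EPB41L4B (0.946) and RFXAP, a factor of MHC class II transcription (0.946). None of these 10 belongs to the oocyte lists. Without the 2 arrays that stood apart the values lay between 0.786 and 0.899 for the former 5 and between 0.902 and 0.971 for the latter.

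Among the genes of the oocyte lists the highest r with ZP3 was that of GDF9, at 0.714 (0.709 without the 2 arrays that stood apart), and 1.21% of all genes had a higher one. The highest with ZAR1 was that of DDX6, an RNA helicase of repressed mRNA particles, at 0.933 (0.915), followed by GDF9 at 0.894 (0.791). After these came the oocyte transcription factor LHX8 at 0.849 (0.800), OOEP of the subcortical maternal complex at 0.845 (0.901) and FIGLA, a transcription factor of zona genes, at 0.832 (0.908). Of all genes 0.0839% had a higher r with ZAR1 than DDX6, 0.42% than GDF9 and 1.69% than FIGLA. GDF9 was highest on LG control 2, at 2.837, as ZAR1 was, and next on SM GDNF 1, at 1.874. The other zona genes had r = 0.610 (ZP2), 0.527 (ASTL) and 0.289 (ZP4) with ZP3. ZAR1L had r = 0.504 with ZAR1 (0.800 without the 2 arrays that stood apart), and YBX2 had -0.550. BMP6 and FGF8 also lay below 0 with ZAR1, at -0.658 and -0.501. Without the 2 arrays CPEB1 went from 0.624 to -0.614 and NPM2 from 0.648 to -0.303. The 95th percentile over all genes was then 0.601 for ZP3 and 0.869 for ZAR1. With ZAR1 the values of GDF9, LHX8 and ZAR1L without the 2 arrays lay below it.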

How the data were processed

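Total RNA of oocyte pools was extracted (PicoPure), amplified with RiboAmp HS by oligo(dT) priming and in vitro transcription, and labelled with ULS-linked Cy5 or Cy3, per the labels' protocols. The authors deposited 1 log ratio per feature and array, treated here as log2; the sources used here do not give base, numerator, background correction, normalization or genome build. All array columns were used (0 others). The platform annotation left 27099 features without a symbol, gave 1 to the other 18121 and never several, and symbols were updated through a RefSeq table. Spot intensities were not used here.

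Features of a gene were averaged and fitted with limma 3.58.1 (R 4.3.3): group plus slide, 12 arrays, 6 residual degrees of freedom, empirical Bayes, two-sided, Benjamini-Hochberg over 11913 genes, called at an adjusted p under 0.05. The code was tested on simulated data. Pool numbers were not taken to pair the samples, as group deviations of the same pool number on slides 2 and 3 had r from -0.450 to 0.588. Without the 2 arrays that stood apart, r over all features on these slides was 0.601 to 0.8445 for the same pool number. For other pool numbers it was 0.3986 to 0.5246, between arrays of different groups in both cases. By group deviations these ranges overlapped, from -0.1056 to 0.5883 and from -0.4165 to 0.4025. Alternatives changed orientation, slides, weights, scaling, block and arrays. Named were ZP3 and ZAR1, list members with an unadjusted p under 0.05 in a comparison whose list counts are given, the zona list, GDF9, BMP15 and the 5 genes most like each member; the list genes named for likeness were chosen after their values were seen. The members and the 6 lists were chosen with earlier results of these data known. No sequences are shown.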

Additional observations from a re-analysis of the deposited data

How the results depend on the processing

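Neither gene passed an adjusted p under 0.05 in any of 198 alternative values each (smallest 0.593 for ZP3 and 0.360 for ZAR1; limma), but the side of a difference often turned; causes were not tested. With 3 arrays a group and 1 probe a gene, intervals of ZAR1 between a pair of groups span over 2 units as deposited, and spot signal over background is unknown. In the opposite reading, and with the replicate block in that reading, ZP3 turned to -0.16 and 0.21 (GDNF in SM and in LG), -0.57 (LG minus SM without GDNF), -0.36 (LG GDNF minus SM control), 0.36 (interaction) and -0.39 (LG minus SM averaged), and ZAR1 to -0.038 (GDNF in SM), -0.84 and -0.41 (LG minus SM without and with GDNF), -0.45 (LG GDNF minus SM control) and -0.63 (LG minus SM averaged). On slides 2 and 3 only, SM GDNF minus LG control turned to -0.16 (ZP3) and -0.43 (ZAR1), and the ZAR1 interaction to -0.25. Without the 2 arrays that stood apart, LG minus SM averaged turned to -0.26 (ZP3) and -0.56 (ZAR1), and ZAR1 to -0.96 and -0.17 without and with GDNF. For ZAR1 array weights gave -0.47 (LG minus SM without GDNF) and -0.16 (averaged), and quantile normalization -0.36 and -0.12. Leaving out 1 array, ZP3 ranged from 0.46 to 0.97 (GDNF in SM), -0.41 to 0.19 (GDNF in LG), -0.060 to 0.45 (SM GDNF minus LG control) and -0.046 to 0.26 (LG minus SM averaged). ZAR1 ranged from -0.40 to 0.78 (GDNF in SM), -0.14 to 1.34 (GDNF in LG), -0.84 to 0.64 and -0.028 to 0.51 (LG minus SM without and with GDNF), -0.33 to 1.16 (SM GDNF minus LG control), -0.22 to 0.96 (LG GDNF minus SM control), -0.46 to 1.03 (interaction) and -0.33 to 0.41 (LG minus SM averaged). The number of genes called was 0 in all settings but 1: SM GDNF minus LG control ranged from 0 to 196, the latter without SM GDNF 3. With pool means removed as a replicate block, the correlation of ZP3 with ZAR1 was 0.657 (exact permutation p = 0.0367, unadjusted) and rho 0.671 (exact permutation p = 0.0238), past the threshold that the within-slide values missed. The r of -0.033 without SM GDNF 1 and SM control 3 was a within-slide value. With pool means removed, the correlation without those arrays was not computed. The replicate block as deposited changed no call or side of a difference. Pool numbers were not taken as pairs by the rule used on all arrays, and not every array was closest to its own number (8 of 12).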
